A study of Mus musculus with 13 samples.

Results

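The loop of Henle cluster held 3628 of the 28316 nuclei that passed the study's filters in single-nucleus ATAC sequencing of mouse kidney, a method that records which stretches of chromatin are open in each nucleus. Its members were all nuclei that the deposited annotation names loop of Henle, in all 5 samples, and they were set against the other 12 named cell types: nephron progenitors, podocytes, proximal convoluted and proximal straight tubule, distal convoluted tubule, connecting tubule, principal cells, intercalated cells, endothelial cells, immune cells and 2 stroma clusters. Kidneys came from mice at P0 (2 samples), P21 (1 sample) and P56 (2 samples). P21 and P56 together are called adult here. No allele or treatment was named for any group, so age is the only labelled difference. Nothing in the labels ties a sample to a number of animals, so the spread between samples may be partly technical. Adult mice were perfused and their tissue was lysed in a larger volume of buffer than that of P0 mice, so age and preparation cannot be told apart. The clusters had been built on both ages together after a batch correction, so 1 name covers immature and mature nuclei.

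The loop of Henle is the hairpin of the nephron that runs between the proximal and the distal tubule. Its thick ascending limb takes up sodium chloride without water, through the apical cotransporter Slc12a1 (NKCC2, the target of loop diuretics) and recycles potassium through Kcnj1 (ROMK). The limb also secretes uromodulin (Umod), the most abundant protein of normal urine, and reabsorbs calcium and magnesium between its cells through claudin channels. In the newborn mouse new nephrons are still forming and the limb is not yet able to concentrate urine.

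The cluster had 635 and 652 nuclei in P0 samples 1 and 2, 394 in the P21 sample, and 1042 and 905 in P56 samples 1 and 2. Of the nuclei in the 13 clusters it made up 10.7% and 12.2% in the P0 samples and 12.1% at P21, with 15.0% and 14.6% at P56. The mean was 11.5% ± 1.01 (SD, n = 2) at P0 and 13.9% ± 1.58 (SD, n = 3) in adult, and the P21 value lay between those of the P0 samples. A two-sided exact permutation test gave p = 0.3, where 0.1 is the smallest this design allows. Over the 9 nephron and duct clusters alone the order turned, 19.9% ± 0.25 at P0 against 17.0% ± 2.19 in adult (exact permutation p = 0.2), so the direction depended on what the share was taken of. In single-cell RNA sequencing of the same study, which had 1 group per age, 1336 of 25138 P0 cells carried this name (5.31%, 95% exact binomial interval 5.04 to 5.60%) and 412 of 18498 adult cells (2.23%, 2.02 to 2.45%). These intervals cover counting error only, and no test of age was possible there.

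A P0 nucleus had more open peaks than an adult one. The median number of open peaks per loop of Henle nucleus was 6567 and 7430 in the P0 samples, 3084 at P21 and 2496 and 4477 at P56, and the ages did not overlap (exact permutation p = 0.1, the smallest possible). Between 1563216 and 5038740 open calls per sample lie behind the levels below. The share of open calls in peaks over a gene start was 42.5 to 44.0% at P0 and 44.9 to 50.9% in adult. Because depth moved with age, levels are given in CPM, open calls scaled to the sum of open calls of the same sample and cluster, and the stage tests were repeated with nuclei thinned to 1000 open peaks. That left out the 6 to 45 loop of Henle nuclei per sample with fewer, and 13803 genes and 19065 peaks then passed the filter on low counts. Thinning draws at random from open calls already made. It levels the number of calls per nucleus but keeps their mix, and it cannot undo the limit of 1 call per peak and nucleus. Of all barcodes, 477 of 27834 occurred in more than 1 sample. Such barcodes belonged to 106 loop of Henle nuclei (2.92%), and 8 of them carried this name in more than 1 sample.

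The sequences that follow are the central 300 bases of 5 peaks that carry the main patterns, read 5′ to 3′ on the plus strand of GRCm38 (mm10), the build of the deposited peaks. Capitals mark letters that match any of 13 short motifs searched on both strands. The peak in an intron of Slc12a1 had the largest ratio of loop of Henle to the next cluster and holds the letters TCAAGGTCA of estrogen-related receptors (ESRR) on the minus strand. The peak before Umod and the peak between Umod and its neighbour Gp2 opened with age. The peak on chromosome 6 holds both the ESRR letters and the POU octamer ATGCAAAT. The peak near Uncx was open at P0 only.

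Slc12a1 intron, chr2:125158812-125159111: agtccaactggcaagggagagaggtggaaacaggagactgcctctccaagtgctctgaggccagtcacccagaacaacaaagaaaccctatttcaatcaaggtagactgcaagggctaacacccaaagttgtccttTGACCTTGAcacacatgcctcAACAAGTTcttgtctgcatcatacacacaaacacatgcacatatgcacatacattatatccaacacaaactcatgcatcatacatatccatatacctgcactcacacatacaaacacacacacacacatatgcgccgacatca
Umod upstream, chr7:119484398-119484697: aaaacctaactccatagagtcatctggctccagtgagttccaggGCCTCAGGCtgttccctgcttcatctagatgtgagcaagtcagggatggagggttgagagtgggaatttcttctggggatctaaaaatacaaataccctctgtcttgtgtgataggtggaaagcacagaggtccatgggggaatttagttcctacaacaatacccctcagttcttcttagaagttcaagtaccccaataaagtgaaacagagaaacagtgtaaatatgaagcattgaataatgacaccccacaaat
Umod to Gp2, chr7:119461636-119461935: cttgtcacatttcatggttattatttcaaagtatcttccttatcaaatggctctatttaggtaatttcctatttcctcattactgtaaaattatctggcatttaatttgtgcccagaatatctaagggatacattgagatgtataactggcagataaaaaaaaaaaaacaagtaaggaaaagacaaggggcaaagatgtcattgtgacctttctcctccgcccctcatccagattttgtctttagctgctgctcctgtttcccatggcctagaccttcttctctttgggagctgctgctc
Intron on chromosome 6, chr6:95287363-95287662: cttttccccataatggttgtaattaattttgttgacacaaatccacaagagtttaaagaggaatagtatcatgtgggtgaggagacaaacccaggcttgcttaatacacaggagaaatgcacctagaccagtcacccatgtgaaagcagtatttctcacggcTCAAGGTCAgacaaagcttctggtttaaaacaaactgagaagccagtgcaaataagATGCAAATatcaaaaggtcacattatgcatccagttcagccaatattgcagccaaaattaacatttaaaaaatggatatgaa
Near Uncx, chr5:139555013-139555312: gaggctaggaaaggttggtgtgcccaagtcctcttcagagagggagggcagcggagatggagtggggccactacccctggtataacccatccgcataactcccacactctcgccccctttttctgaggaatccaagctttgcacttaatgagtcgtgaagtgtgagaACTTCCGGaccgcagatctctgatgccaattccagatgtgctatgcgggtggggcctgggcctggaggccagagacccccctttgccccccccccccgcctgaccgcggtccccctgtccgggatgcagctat

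The 2 markers that define the cell type were highest in this cluster. Gene activity here is the sum of open calls over peaks that touch a gene body or the 2 kb before its start. Slc12a1 (ENSMUSG00000027202.12, chromosome 2, 125152505 to 125230002, plus strand) had 72.9 and 94.1 CPM in the P0 samples and 380 CPM at P21, with 292 and 341 CPM at P56. Its mean over the 5 samples was 236 ± 143 (SD), against 39.7 ± 3.90 in distal convoluted tubule, the next cluster. Umod (ENSMUSG00000030963.6, chromosome 7, 119462711 to 119479282, minus strand) had 26.2, 30.8, 130, 148 and 186 CPM in the same order, with a mean of 104 ± 72.0 against 38.5 ± 24.5 in nephron progenitors. Pooled by age, nuclei of that name had 14.4 CPM over Umod at P0 and 56.02 in adult. Over Six2, a nephron progenitor marker, they had 56.7 at P0 and 1.08 in adult. Loop of Henle led in all 5 samples for Slc12a1 and for Umod. For the peak over the start of Umod alone it led in 3 of 5 samples in CPM, with distal convoluted tubule next. That peak was open in 19.1% ± 14.5 of loop of Henle nuclei, 10.9% ± 9.17 of distal convoluted tubule nuclei and 17.0% ± 8.85 of proximal straight tubule nuclei. These values describe the cluster and were not tested, since the same nuclei were clustered and named by such genes.

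Markers of other cell types summed lower here than in the cells they mark, except that the adult ranges for nephron progenitor markers met (35.4 to 58.2 CPM here, 56.2 to 91.4 there), and none of the 50 was at 0. The 3 markers of distal convoluted tubule summed to 120 CPM in both P0 samples and to 196 to 261 in adult loop of Henle nuclei, against 921 to 1238 in adult distal convoluted tubule itself. Most of the adult sum was Slc12a3, the thiazide-sensitive cotransporter, which rose with age in the cluster (47.1 ± 2.10 to 191 ± 37.9 CPM, SD, n = 2 and 3), while the other markers Trpm6 and Pvalb were called higher at P0. The peak over the start of Slc12a3 was open in 0.945% and 0.920% of loop of Henle nuclei at P0 and in 0.288 to 1.02% in adult, against 39.3% ± 13.4 of distal convoluted tubule nuclei. Over the 89743 peaks tested in loop of Henle, the profile of the P0 nuclei was closest to connecting tubule (Pearson's r = 0.87 over log2 levels across peaks) and to principal cells (0.84), and that of the adult nuclei to distal convoluted tubule (0.88) and connecting tubule (0.86). At P0 r was 0.81 with nephron progenitors and 0.80 with distal convoluted tubule. Peaks are not independent replicates, and the clusters come from the same libraries. They differ in depth and in size, from 386 nuclei in immune cells to 7412 in proximal convoluted tubule. These r therefore describe the profiles only, and their order may depend on cluster size.

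Few peaks and fewer genes stood out for loop of Henle. A peak was called most open here when its mean level was at least 2 times that of every other cluster and it led in each of the 5 samples. That held for 152 of the 89743 peaks that passed the filter on low counts (0.169%), without a test. By the same rule there were 1401 in podocytes, 2137 in proximal convoluted tubule and 6231 in endothelial cells, 115 in distal convoluted tubule and 28 in connecting tubule, each over its own filtered peaks. The next cluster was distal convoluted tubule for 50 of the 152 peaks, nephron progenitors for 28 and connecting tubule for 21. The peaks were open in a median of 4.08% of loop of Henle nuclei, against 1.32% in the next cluster. Just outside the ratio of 2 lay a peak in Cldn10 (ratio 1.96) and 1 on chromosome 5 (1.99), and just inside it 1 in Dscaml1 (2.01) and 1 near Mlkl (2.02). With nuclei thinned to 1000 open peaks 22 peaks met the rule, of which 15 were among the 152. Without P0 sample 1 or 2 the rule gave 336 or 265 peaks.

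Of the 152 peaks 3 lay over a gene start (1.97%, against 20.03% of all peaks tested), 44.7% were distal and 38.8% were in introns. Slc12a1 was the nearest gene start for 7 of them, Slc24a5 for 5 and Nr2f2, Slc9a3 and Dut for 3 each. Slc24a5 and Dut lie near Slc12a1 on chromosome 2, and Slc9a3 encodes the sodium-hydrogen exchanger NHE3. The largest ratio was 12.5, for the intron peak of Slc12a1 printed above (chr2:125158703-125159219, 6.36 kb after the start), open in 10.5% ± 6.58 of loop of Henle nuclei and 0.994% ± 1.25 of podocytes, the next cluster. The peak over the start of Slc12a1 had a ratio of 9.52 and was open in 23.5% ± 14.7 of nuclei, against 3.79% ± 3.58 in distal convoluted tubule. A coding-exon peak of the gene (chr2:125165172-125165823) had a ratio of 7.38. A distal peak beyond its end (chr2:125234975-125236393, nearest start Dut) had a ratio of 8.76 and was open in 14.7% ± 5.83 of nuclei.

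The other 6 of the 10 peaks with the largest ratios lay away from known genes of the limb. They were a distal peak 214 kb before Acvr2a, an activin receptor (chr2:48599573-48599861, ratio 12.2), and a distal peak 323 kb from Nr2f2, an orphan nuclear receptor (chr7:70031843-70032123, 11.9). Others were an exon peak of Gm765 (chr6:98247898-98248164, 11.2), a distal peak 33.3 kb before Ryr2 (chr13:12139852-12140658, 10.9), an intron peak whose nearest coding start was that of Pou3f3, 869 kb away (chr1:41826894-41827318, 10.3), and a distal peak 27.4 kb from Vmn2r83 (chr10:79495937-79496448, 8.08). The peaks near Acvr2a, Nr2f2 and Gm765 were open in 1.31%, 0.888% and 0.799% of the nuclei only, so their ratios rest on few calls. Pou3f3 encodes the POU factor Brn1 of the distal nephron, and such a distance does not assign the peak to it.

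At the level of gene activity 8 of the 16781 genes tested (0.0477%) led in loop of Henle in all 5 samples. They were Slc12a1 (5.94 times the next cluster), Umod (2.71), Myo3a (1.84), Tenm2 (1.77), Spink4 (1.54), Casr (1.45), Erbb4 (1.40) and Lrrc7 (1.22), of which the first 5 passed a ratio of 1.5. Casr, the calcium-sensing receptor of the limb's basolateral side, had 166 ± 67.5 CPM against 114 ± 26.8 in distal convoluted tubule. Erbb4, a receptor of the EGF family, had 234 ± 69.6 against 167 ± 45.4. The next cluster was distal convoluted tubule for 6 of the 8 genes. For Umod, Myo3a, Spink4, Casr, Erbb4 and Lrrc7 the means of both clusters differed by less than the sum of their SDs. These SDs run over both ages, so they include the change with age. They also leave out that both clusters come from the same 5 samples. With thinned nuclei 2 genes passed the ratio of 1.5, and without P0 sample 2 there were 11.

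In each nucleus the leading peaks were opened sparsely. A loop of Henle nucleus had a median of 4 and 6 of the 152 peaks open in the P0 samples, 9 at P21 and 8 and 11 at P56. The peaks were chosen by their mean over all 5 samples, 3 of them adult, so this age difference is not independent of the choice and was not tested. At P0 9.29% and 7.67% of nuclei had none of them open, against 0.773 to 1.02% in adult. A peak of the Slc12a1 window was open in 28.7% and 41.3% of nuclei at P0 and in 53.0 to 78.6% in adult. A peak of the Umod window was open in 16.1% and 20.9% at P0 and in 35.0 to 61.4% in adult. Neither window was open in 61.3% and 48.9% at P0 and in 11.1 to 30.9% in adult. In sparse data a closed call can be a missed one, and an open call can come from another cell, so these shares are of calls and not of cells that use the gene.

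The comparison of age within loop of Henle nuclei asked how chromatin of the same named cell type differed before and after the kidney matures. It was tested on sums of open calls per sample with edgeR's quasi-likelihood test and Benjamini-Hochberg adjustment over all features, with 2 P0 and 3 adult samples. Of 16781 genes 8640 were called at an adjusted p under 0.05 (51.5%), 3867 higher in adult (23.0%) and 4773 higher at P0 (28.4%). Of 89743 peaks 48776 were called (54.4%), 21950 higher in adult (24.5%) and 26826 higher at P0 (29.9%). Counts within a gene list are therefore set against these shares. With thinned nuclei 27.5% of genes were called, 10.9% higher in adult and 16.6% higher at P0. For peaks the balance turned with thinning, with 24.7% called, 13.7% higher in adult and 11.0% higher at P0. Without TMM scaling the genes split 2729 to 5376 and the median log2 difference moved from -0.02 to -0.14 (peaks, -0.11 to -0.31), so small differences depend on the scaling. Without P0 sample 1 the calls fell to 1436 and 2739 genes, and without P0 sample 2 to 1760 and 3203.

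**Figure D1:**
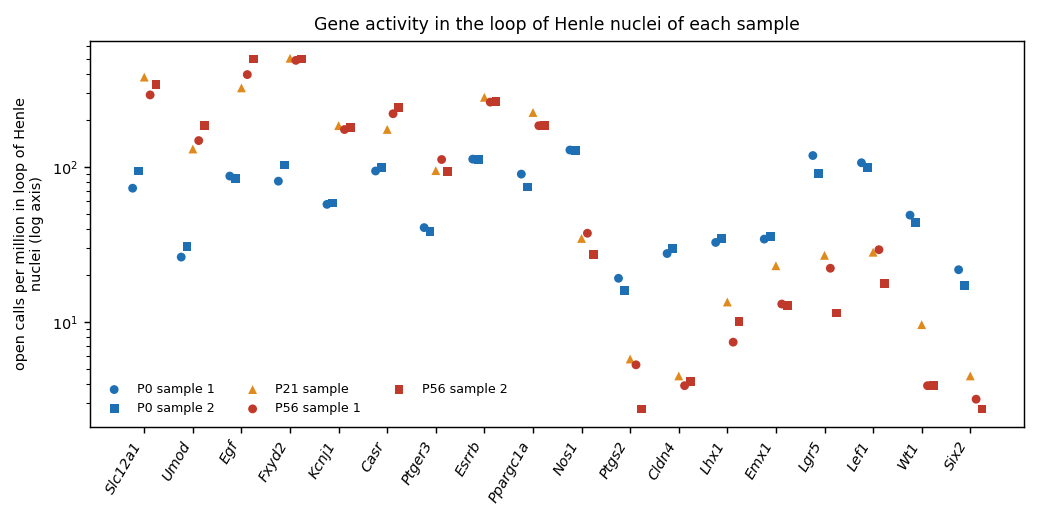
Gene activity of 18 listed genes in the loop of Henle nuclei of each sample, in CPM on a log axis. Blue points are the 2 P0 samples, the orange triangle the P21 sample and red points the 2 P56 samples. For the 9 genes on the left all adult samples lie above both P0 samples, and for the 9 on the right all lie below. The ages likewise did not overlap for 8520 of all 8640 called genes, so this does not set the 18 apart.

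The listed salt transport genes of the thick ascending limb had higher levels in CPM in adult nuclei. All 12 genes of that list were higher in adult, against 23.0% of all genes, with a median log2 difference of 1.35 against -0.02 over all genes tested. Slc12a1 rose from 83.5 ± 15.0 (SD, n = 2) to 338 ± 44.3 (n = 3) CPM, a log2 difference of 2.03 ± 0.15 (SE, edgeR adjusted p = 1.58e-05). Kcnj1, the apical potassium channel, had 57.3 and 58.5 CPM at P0 and 174 to 185 in adult, a log2 difference of 1.66 ± 0.13. The 3 adult samples lay close together and far from both P0 samples. Fxyd2, the gamma subunit of the sodium pump, had the largest difference of the list, from 80.9 and 103 CPM at P0 to 487 to 503 in adult (log2 2.46 ± 0.14, adjusted p = 7.83e-06). Atp1b1, the beta subunit of the pump, rose by 1.39 ± 0.13 on the log2 scale. Bsnd, which encodes barttin, rose by 1.28 ± 0.16. Slc9a3 rose by 1.46 ± 0.13 and the basolateral potassium channel gene Kcnj16 by 1.34 ± 0.14. In share of nuclei the ages did not overlap at the start peaks of Kcnj1 and of Fxyd2, the latter at 3.78% and 7.67%, then 20.7 to 35.6%. They overlapped at those of Atp1b1 (50.7% and 56.7%, then 41.0 to 80.2%), Bsnd and Kcnj16. The part of depth in this was not tested.

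The smallest differences of the list were those of Kcnj10 (0.49 ± 0.14, adjusted p = 0.011), whose channel pairs with that of Kcnj16, and of the bicarbonate cotransporter Slc4a4 (0.41 ± 0.15, adjusted p = 0.0369). With thinned nuclei 10 of the 12 were called, against 10.9% of all genes higher in adult in that fit, and these 2 were not. Slc4a4 also lost its call without TMM scaling, with equal numbers of nuclei, and without P21 or either P0 sample. Counted over the 2 kb on either side of the start alone, Slc4a4 had a log2 difference of -0.56 (adjusted p = 0.0833). Slc12a3, a marker of distal convoluted tubule, rose beside the list as given above, and its part in these differences was not tested.

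The list of secreted proteins and macula densa genes moved in both directions. Of its 7 genes 4 were higher in adult, against 23.0% of all genes, and 3 higher at P0, against 28.4%. The macula densa is the plaque of cells at the end of the ascending limb that senses salt and signals to the renin cells. Umod rose from 28.5 ± 3.23 to 155 ± 28.2 CPM (log2 2.48 ± 0.18, adjusted p = 1.58e-05), and Egf, the precursor of epidermal growth factor, from 85.5 ± 2.52 to 405 ± 87.2 (log2 2.28 ± 0.18). Spp1 (osteopontin) rose by 1.47 ± 0.20 and Ptger3, the EP3 receptor of prostaglandin E2, by 1.37 ± 0.16. The other 3 genes of the list fell. Nos1, the neuronal nitric oxide synthase, had 129 and 128 CPM at P0 and 27.2 to 37.3 in adult, and decreased by 1.95 ± 0.16 on the log2 scale (adjusted p = 1.86e-05). Ptgs2 (COX-2) had 19.1 and 15.9 at P0 and 2.74 to 5.76 in adult and decreased by 2.01 ± 0.33, and Pappa2, a protease of IGF-binding proteins, decreased by 1.89 ± 0.25. The start peak of Nos1 was open in 7.56% and 9.36% of P0 nuclei and in 0.288 to 0.508% of adult nuclei. Over the 5 samples it was open in 3.63% ± 4.45 of loop of Henle nuclei and in 11.4% ± 7.47 of proximal straight tubule nuclei, and loop of Henle ranked 5 of the 13 clusters. Which cells gave these calls was not tested, and summed markers of several other cell types were lower in the same adult nuclei, as given below. In sums over a cluster, fewer nuclei of a type and fewer open calls in each cannot be told apart. All 7 genes of this list kept their calls with thinned nuclei.

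Of 11 claudins and divalent cation genes 6 were higher in adult, against 23.0% of all genes. The 3 that were lower are near the 28.4% of all genes, and 2 were not past the threshold. Casr rose from 96.9 ± 3.87 to 212 ± 34.0 CPM (log2 1.17 ± 0.16). Cldn16, the paracellular magnesium and calcium channel protein, rose by 1.25 ± 0.22, its partner Cldn19 by 0.48 ± 0.14 (adjusted p = 0.0159), and Cldn10, the sodium-selective claudin, by 0.79 ± 0.13. Cldn14, which restrains that cation pathway, had 44.1 and 44.3 CPM at P0 and 17.3 to 22.4 in adult and decreased by 1.15 ± 0.18. Cldn4 fell most, from 27.6 and 29.8 CPM to between 3.87 and 4.48 (log2 -2.77 ± 0.26, adjusted p = 2.54e-05). The start peak of Cldn4 was open in 12.1% and 15.0% of P0 nuclei and in 0.761 to 0.960% of adult ones. The call of Cldn19 was lost without P0 sample 1, without P0 sample 2, without the P21 sample and without TMM scaling.

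Of 14 kinases and hormone receptors that act on salt transport, 10 were higher in adult, against 23.0% of all genes. Only 1 was lower, against 28.4% of all genes, and 3 did not pass. With thinned nuclei 7 of the 12 tested were higher in adult, against 10.9% of all genes in that fit. Gcgr, the glucagon receptor, rose by 1.102 ± 0.13, Adcy6, the adenylyl cyclase behind several of these receptors, by 1.096 ± 0.13, and Stk39 (SPAK), the kinase that phosphorylates the cotransporter, by 0.62 ± 0.14 (adjusted p = 0.0033). Avpr2, the vasopressin receptor, had few calls (4.98 ± 0.30 to 12.02 ± 2.29 CPM, log2 1.35 ± 0.31, adjusted p = 0.00382). Calcr, the calcitonin receptor, was the gene that fell, from 7.88 ± 0.20 to 2.21 ± 1.58. Avpr2 and Calcr did not pass the filter on low counts once nuclei were thinned, and the call of Avpr2 was lost without either P0 sample.

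Among 21 transcription factors of the distal nephron, 13 were higher in adult, against 23.0% of all genes. Another 4 were lower, a smaller share than the 28.4% of all genes, and 4 did not pass. Esrrb, an estrogen-related receptor, had 112 CPM in both P0 samples and 262 to 281 in adult (log2 1.29 ± 0.12, adjusted p = 2.54e-05). Its relative Esrra rose by 1.08 ± 0.16 and the coactivator of both, Ppargc1a (PGC-1α), by 1.29 ± 0.15, while Esrrg had 294 ± 1.27 and 309 ± 46.7 CPM (adjusted p = 0.604). Irx2, an Iroquois factor of the distal nephron, rose by 1.21 ± 0.15, Nr3c2, the mineralocorticoid receptor, by 0.87 ± 0.12, and Tfap2b by 0.86 ± 0.17. The rise of Esrrb lay in its gene body: over 2 kb on either side of its start the log2 difference was -0.09 (adjusted p = 0.858). The 4 that fell were Lhx1, a factor of the early tubule (33.5 ± 1.39 to 10.3 ± 3.03 CPM, log2 -1.73 ± 0.24), Foxa1 (-1.70 ± 0.36), Emx1 (-1.16 ± 0.24) and Tfap2a (-0.67 ± 0.18). The start peak of Lhx1 was open in 18.7% and 23.6% of P0 nuclei, 4.31% at P21, and 0.384% and 2.43% at P56. The calls of Foxa1 and Tfap2a were lost without P0 sample 1.

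Energy metabolism genes rose nearly throughout in CPM, in a segment that is rich in mitochondria. Of 18 genes 17 were higher in adult, against 23.0% of all genes, none was lower, and the median log2 difference was 0.92. Hk1, the first enzyme of glycolysis, rose from 130 ± 5.34 to 306 ± 14.7 CPM (log2 1.27 ± 0.12), Ckb, the brain-type creatine kinase, by 1.22 ± 0.21, and Cpt1a, which admits fatty acids to mitochondria, by 1.07 ± 0.12. Sdha, of the respiratory chain, had 40.4 ± 3.00 and 35.1 ± 6.37 CPM and did not pass (adjusted p = 0.439). In share of nuclei the ages overlapped at the start peaks of Cs (30.1% and 38.2% at P0, 17.6 to 44.8% in adult), Mdh1 and Pkm. At the start of Sdha the share was lower in adult (5.76 to 18.0%, against 20.3% and 27.6%). P0 nuclei held more open peaks, and the part of that in the rise in CPM was not tested. With thinned nuclei 12 of the 18 were called higher in adult, against 10.9% of all genes in that fit, and none lower.

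Progenitor and patterning genes were the reverse. Of 26 genes 20 were higher at P0, against 28.4% of all genes, 2 were higher in adult and 4 did not pass, with a median log2 difference of -1.45. Wt1, a factor of progenitors and podocytes, had 48.8 and 43.9 CPM in the P0 samples, 9.60 CPM at P21 and 3.87 and 3.88 CPM in the P56 samples (log2 -3.16 ± 0.29, adjusted p = 2.54e-05). Six2, which keeps nephron progenitors undifferentiated, decreased by 2.55 ± 0.32, and Lgr5, a Wnt-responsive marker of the early distal tubule, by 2.45 ± 0.26. Lef1, a transcription factor of the Wnt pathway, decreased by 2.05 ± 0.20, the ligand Wnt4 by 1.83 ± 0.21 and Hmga2, a chromatin protein of growing tissue, by 1.53 ± 0.19. The 2 higher in adult were the Notch target Hes1 (0.74 ± 0.19) and Sall1 (0.40 ± 0.15, adjusted p = 0.0459), which lost its call in 8 of 14 alternatives, thinning among them.

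Markers of several other cell types were also lower in adult loop of Henle nuclei. The 5 nephron progenitor markers summed to 137 and 154 CPM in P0 loop of Henle nuclei and to 35.4 to 58.2 in adult, against 249 to 251 in P0 nephron progenitors. The 6 stroma markers summed to 175 and 189 at P0 and 75.5 to 82.5 in adult. All 6 were called higher at P0, against 28.4% of all genes. The 6 endothelial markers summed to 178 and 187 at P0 and 104 to 122 in adult, with 3 called higher at P0. The 5 markers of intercalated cells summed to 68.1 and 70.8 and then to 21.5 to 29.4, and the 5 podocyte markers to 199 and 202 and then to 97.7 to 131. The 5 principal cell markers summed to 120 and 133 at P0 and to 54.9 to 64.6 in adult. The 7 proximal tubule markers (171 and 175 at P0, 56.01 to 232 in adult) and the 3 connecting tubule markers (98.8 and 110, then 85.3 to 112) overlapped between the ages. The 5 immune markers went the other way, 203 and 242 to between 271 and 351, most of it Cx3cr1. Of the markers tested, 4 of 5 for nephron progenitors and 4 of 5 for podocytes were called higher at P0. For principal cells and for intercalated cells it was 3 of 4 each, and for connecting tubule 2 of 3. For proximal tubule it was 1 of 5, and for immune cells 1 of 3, with 1 higher in adult. With nuclei thinned to 1000 open peaks the stroma sums were 170 and 195 at P0 and 61.5 to 83.3 in adult. Thinning keeps the mix of calls in each nucleus, so similar sums follow from the method and are no check on depth. The part of such markers in the stage differences was not tested.

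**Figure D2:**
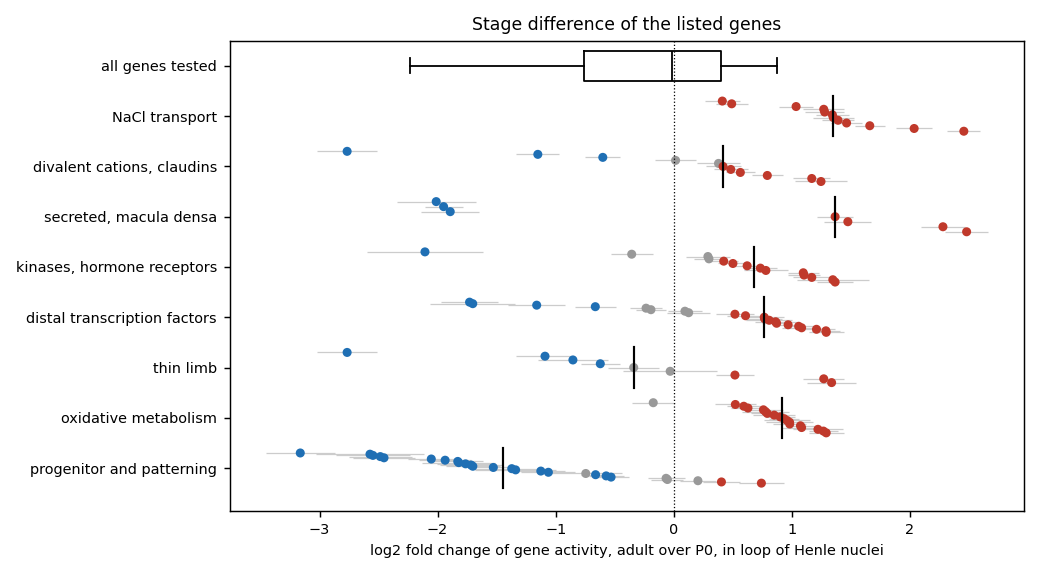
Log2 difference of gene activity between adult and P0 loop of Henle nuclei for the 111 genes of 8 lists, with red for genes called higher in adult, blue for higher at P0, grey for not past the threshold and grey bars for the SE. Black lines are list medians, and the box on top shows the 16781 genes tested (quartiles, whiskers from the 5th to the 95th percentile); all salt transport genes lie right of 0 and most progenitor genes left of it.

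The thin limb was represented by 9 genes, 3 higher in adult, 4 lower and 2 not past the threshold. Of all genes 23.0% were higher in adult and 28.4% lower, and with 9 genes no difference from these shares is claimed. Cryab, a small heat-shock protein of the inner medulla, rose from 13.5 ± 1.64 to 33.5 ± 1.53 CPM (log2 1.34 ± 0.21). Aqp1, the water channel of the descending limb, had 11.3 ± 0.30 and 11.9 ± 7.77 CPM (adjusted p = 0.954), at rank 12 of the 13 clusters.

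The widest stage differences by the fixed rule, among genes whose P0 and adult samples did not overlap, named few genes of the limb. Higher in adult were Gp2, Sult1a1, Sult1d1, Cyp4b1, Cyp1a2, Lrit3, Gm21830, Perm1 and Gapt, with log2 differences between 3.05 and 4.12, and Cyp2j8. Gp2, a membrane glycoprotein that resembles uromodulin, had 21 and 29 open calls at P0 and 106, 267 and 483 in adult (log2 4.12 ± 0.26, adjusted p = 1.09e-05). Sult1a1 and Sult1d1, which sulfate phenols and catecholamines, differed by 3.92 ± 0.27 and 3.65 ± 0.20, and Perm1, a regulator of mitochondrial genes known from muscle, by 3.08 ± 0.25. Cyp2j8 had no call at P0 and 9, 15 and 12 in adult, at least 14.2-fold higher against a floor of 3 calls over the P0 samples. Higher at P0 were Ms4a2, Gm8281, Olfr214, Gm39653, Tro, Gm9767, Crispld1, Prrg3, Tmem215 and Akr1c18. Olfr214 had 52 and 79 calls at P0 and 0, 0 and 1 in adult, and Crispld1 had 69 and 79 against 0, 3 and 0. Ms4a2, Gm8281 and Gm39653 had no adult call and were at least 12.6-fold, 10.7-fold and 8.80-fold higher at P0 by the same floor. The genes higher at P0 had at most 79 calls in any sample.

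Around Slc12a1, 15 of 18 peaks within 50 kb of the start were open in at least 2% of loop of Henle nuclei, and 8 of the 15 led in all 5 samples. The start peak (chr2:125151851-125152933) was open in 8.82% and 14.1% of nuclei in the P0 samples, 34.8% at P21 and then 16.6% and 43.2% at P56. In CPM it was higher in adult by 2.53 ± 0.27 (log2, adjusted p = 3.32e-08). P56 sample 1, the sample with the fewest open peaks per nucleus, stayed near the P0 samples in share of nuclei. The intron peak with the ESRR letters was open in 3.78% and 5.52% in the P0 samples, 17.3% at P21 and then 8.35% and 17.8% at P56 (log2 2.70 ± 0.28, adjusted p = 2.11e-08). A peak 45.7 kb before the start (chr2:125106552-125107076) had the largest difference of the locus, 3.31 ± 0.45, from 0.315% and 1.84% to between 3.30% and 5.75%. Of the 15 peaks 13 were called higher in adult, against 24.5% of all peaks tested. The other 2, over the start of the neighbour Myef2 and before Ctxn2, had log2 differences of 0.49 ± 0.26 and 0.22 ± 0.33 (adjusted p = 0.112 and 0.586). The 15 peaks were kept by their mean share over 3 adult and 2 P0 samples. The count of 13 is therefore not independent of that choice.

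Around Umod, 12 of 18 peaks were open in at least 2% of the nuclei and 2 of them led in all 5 samples. One was the distal peak 5.27 kb before the start printed above (chr7:119484303-119484791), open in 2.99% and 4.91% of nuclei at P0 and in 8.93 to 24.6% in adult, against 2.83% ± 2.34 in connecting tubule, the next cluster. The other lay inside the gene (chr7:119476572-119477694) and was open in 12.3% and 15.3% at P0 and 18.2 to 31.6% in adult. The widest stage differences were at 2 other peaks. The peak between Umod and Gp2 (chr7:119460861-119462710, 17.5 kb after the start of Umod) was open in 1.102% and 1.38% of P0 nuclei, 23.1% at P21, and 22.4% and 45.6% at P56 (log2 5.70 ± 0.36, adjusted p = 1.65e-11). An exon peak within Umod (chr7:119469378-119470080) was open in 0.315% and 0.307% at P0 and in 5.37 to 17.5% in adult (log2 5.98 ± 0.51). The start peak of Umod itself was open in 4.88% and 8.13% at P0 and in 16.7 to 40.9% in adult (log2 3.17 ± 0.28). The peak toward Gp2 reaches into the window before the start of Gp2 and held 737 of the 856 adult open calls counted for Gp2, and 16 of its 50 at P0. The 4 named peaks farthest before Umod, at Acsm5 and Pdilt, were led by proximal tubule clusters.

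**Figure D3:**
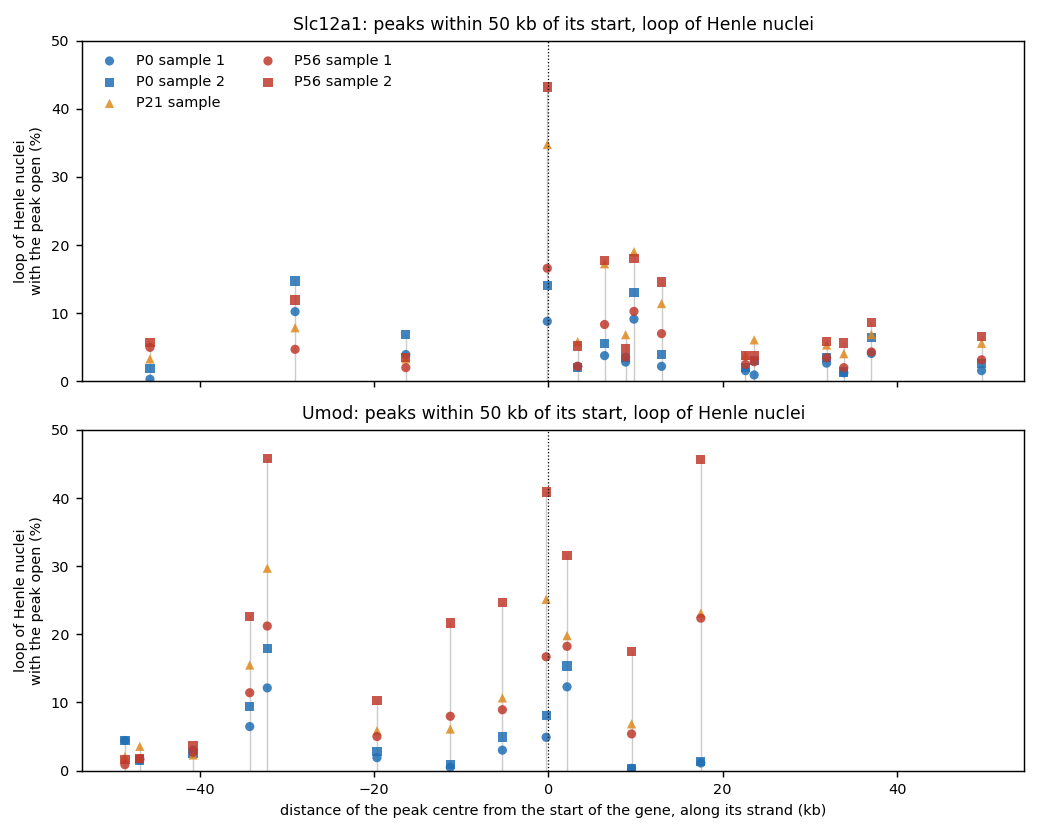
Share of loop of Henle nuclei in which each peak was open, by sample, against the distance of the peak centre from the start of Slc12a1 (top) and Umod (bottom) along the gene's strand, for peaks open in at least 2% of the nuclei. The peak 17.5 kb after the start of Umod lies at 1.102% and 1.38% in the P0 samples and between 22.4% and 45.6% in the adult samples.

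The 152 leading peaks were mostly higher in adult, 116 of them (76.3%, against 24.5% of all peaks), with 2 higher at P0 and 34 not past the threshold. Their median log2 difference was 1.68, against -0.11 over all peaks. The rule that chose them used the mean over 3 adult and 2 P0 samples, so this count is not independent of it. Taken from the P0 samples alone the rule gave 399 peaks, and from the adult samples alone 914, of which 80 were shared (20.1% of the P0 peaks and 8.75% of the adult peaks).

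The 10 peaks with the widest stage differences were closed in 1 age altogether, so their folds are lower bounds against 3 calls over that age's samples. Open in adult only were an intron peak of Gucd1 (chr10:75510551-75511100, 28, 83 and 125 calls, at least 78-fold), a peak on the X chromosome (chrX:50620100-50620488, 23, 1 and 84 calls), a distal peak 16.5 kb before Slc2a6 (chr2:27044406-27044611, at least 28.9-fold), an intron peak of Schip1 (chr3:68560097-68560601, at least 26-fold) and a peak 2.33 kb before Egf (chr3:129757524-129757768, 11, 17 and 47 calls, at least 24.5-fold). Open at P0 only were an intron peak of Cacna2d2 (chr9:107448972-107449669, 56 and 77 calls, at least 41.7-fold), the peak 11.3 kb from Uncx printed above (chr5:139554832-139555493, 60 and 71 calls, at least 41.4-fold), an intron peak of Fyn (chr10:39430006-39430916, at least 39.0-fold), a distal peak near Npm1 (chr11:33180650-33181323, at least 37.9-fold) and an exon peak with Gm21863 as the nearest coding start (chr12:20196390-20197349, at least 35.5-fold). Calls pooled over the other 12 clusters, whose makeup differs between the ages, moved the same way at all 10. The Uncx peak had 535 calls at P0 and 31 in adult there, the Gucd1 peak 41 and 984, and the Egf peak 3 and 31.

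The P21 sample lay nearer to P56 than to P0. With P56 against P0 as the comparison, which leaves P21 out, 3391 genes were higher at P56, and P21 was on the P56 side of the midpoint for 3028 of them (89.3%). For the 4618 genes higher at P0 this held for 3789 (82.0%). For peaks it held for 75.3% of 20709 and 83.6% of 26941. The median position of P21 on the way from P0 to P56, on a scale of log2 of CPM plus 1, was 92.7% for genes that were higher at P56 and 78.2% for those higher at P0. For peaks it was 79.8% and 85.4%. There was 1 sample at P21, so these shares have no replicate check.

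Whether an age difference in loop of Henle differed from those elsewhere was tested as an interaction. This was the stage difference in loop of Henle minus the mean of those in the other 12 clusters. Left out were 1738 of 17202 genes with no open call in 1 or more of those clusters at 1 age, for which such a mean has no estimate. Of the other 15464 genes 5176 were called (33.5%), 2357 with the difference toward adult in loop of Henle (15.2%) and 2819 toward P0 (18.2%). The difference is signed, so a call can also come from an opposite move in the other clusters. Of the salt transport genes 9 of 12 were called toward adult. For Slc12a1 the extra rise was 1.23 ± 0.38 (log2, SE, adjusted p = 0.00981) and for Fxyd2 1.21 ± 0.16. Egf had the clearest difference toward adult of the listed genes (2.00 ± 0.14, adjusted p = 7.05e-17), followed by Ptger3 (1.60 ± 0.17), Ckb (1.32 ± 0.15), Esrrb (1.203 ± 0.14) and Irx2 (1.17 ± 0.36). Toward P0 were Wt1 (-2.04 ± 0.41), Lhx1 (-1.89 ± 0.21), Emx1 (-1.46 ± 0.25), Lgr5 (-1.26 ± 0.22), Nos1 (-1.14 ± 0.22) and Cldn4 (-2.07 ± 0.51). Umod was among the genes left out. Of the energy genes 16 of 18 were called toward adult, and of the progenitor genes 16 of 26 toward P0 and none toward adult.

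With thinned nuclei 11527 genes could be tested in this way and 915 were called (7.94%), 359 toward adult (3.11%) and 556 toward P0 (4.82%). Of the salt transport genes 9 could be tested and 1, Fxyd2, was called (1.29 ± 0.22). Of the 18 energy genes 4 were called toward adult, and of the 10 progenitor genes that could be tested 2 toward P0. Egf, Ckb, Esrrb, Lhx1 and Lgr5 were also called, and Nos1 (-0.87 ± 0.30, adjusted p = 0.0515) and Casr (0.40 ± 0.25, adjusted p = 0.384) were not. Slc12a1, Ptger3, Irx2, Wt1, Emx1 and Cldn4 had a cluster with no open call at 1 age and were not tested.

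Against distal convoluted tubule alone, the neighbour that adult loop of Henle resembled most, 571 of 16711 genes were called (3.42%), 266 with the difference toward adult in loop of Henle (1.59%) and 305 toward P0 (1.83%). Of the salt transport genes 9 of 12 were called toward adult. For Slc12a1 the stage difference in loop of Henle was higher by 2.25 ± 0.44 (adjusted p = 0.000907) and for Fxyd2 by 1.62 ± 0.25. For Lhx1 and Emx1 it was lower, by 2.19 ± 0.31 and 1.74 ± 0.33. Of the other genes named above toward P0, none was called in this comparison: Wt1 (-1.90 ± 0.90, adjusted p = 0.283), Cldn4 (-1.18 ± 0.57, 0.291), Nos1 (-1.01 ± 0.34, 0.0892) and Lgr5 (-0.72 ± 0.38, 0.357). For Egf the difference was 0.92 ± 0.29 (adjusted p = 0.0599), for Umod -0.73 ± 0.78 (0.733), for Esrrb 0.48 ± 0.23 (0.274) and for Casr 0.52 ± 0.31 (0.439), none of which passed. Of the 18 energy genes 1 was called toward adult, and of the 26 progenitor genes 2 toward P0. Ptger3 (0.58 ± 0.52, adjusted p = 0.66), Ckb (0.83 ± 0.34, 0.185) and Irx2 (1.47 ± 0.69, 0.278) were not called. This comparison rests on 1 cluster of 950 nuclei, and its SE for Egf was 0.29, against 0.14 with the 12 clusters. A gene not called here is therefore not shown to change alike in both clusters.

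Sequence motifs were counted in the central 300 bases of peaks, as letters on both strands and without a test, since a match is not a bound site. The ESRR letters TCAAGGTCA, the extended site of estrogen-related receptors, were in 7 of the 152 leading peaks (4.61%), against 1.05% of the 89710 tested peaks on chromosomes that could be read. Among peaks higher in adult the share was 2.27% and among peaks higher at P0 0.414%. Away from gene starts it was 4.70%, 2.70% and 0.455%, against 1.21% of all such peaks. The 7 leading peaks with these letters include the Slc12a1 intron peak and the peak on chromosome 6 printed above. The POU octamer ATGCAAAT was in 3.29% of the leading peaks against 1.74% of all, the TEAD letters CATTCCA in 9.21% against 6.14%, and the HNF1 letters GTTAATNAT in 0.658% against 2.02%. The AP-1 letters TGANTCA were in 3.95% against 8.97%, and in 9.25% and 9.21% of peaks higher in adult and at P0. The CTCF letters CNAGGGGGC were in 0.658% of the leading peaks against 2.44%, and the SP/KLF letters GGGGCGGGG and the ETS letters CCGGAAGT, frequent at gene starts (4.402% and 1.202% of all peaks), were in none.

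The letters of TFAP2 (GCCNNNGGC) were in 9.87% of leading peaks against 14.2% of all, those of GRHL (AACNNGTT) in 5.26% against 4.95%, of FOXA (TGTTTAC) in 4.61% against 4.37%, of SIX2 (AACCTGA) in 1.97% against 4.74% and of HNF4 (CAAAGTCCA) in 1.32% against 0.661%. With 152 peaks, 1 peak is 0.658%, which sets the step between these shares.

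**Figure D4:**
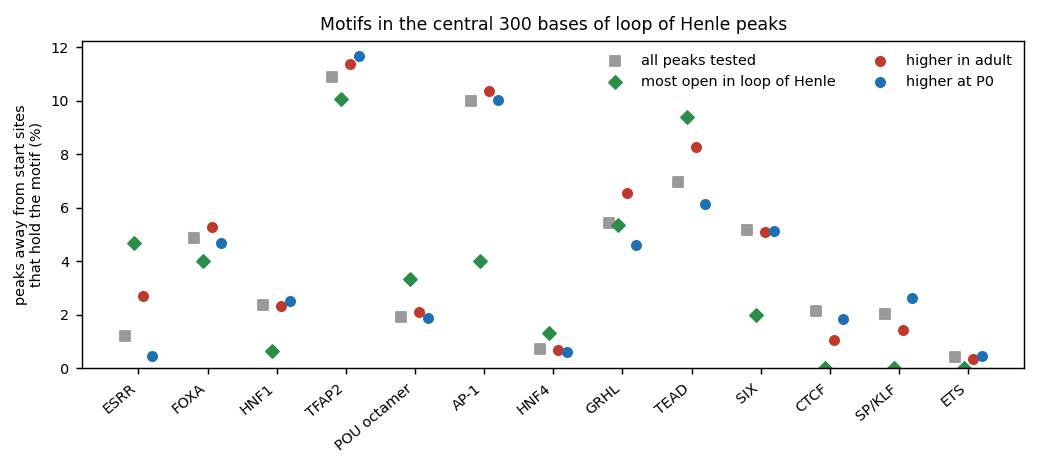
Share of loop of Henle peaks away from gene starts whose central 300 bases hold each of 13 motifs, for all peaks tested (grey squares), the peaks most open in loop of Henle (green diamonds), and peaks higher in adult (red) or at P0 (blue). The ESRR letters are in 4.70% of the leading peaks, 2.70% of those higher in adult and 0.455% of those higher at P0.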

How the data were processed

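Nuclei of mouse kidney were profiled by single-nucleus ATAC sequencing (Chromium), and the authors aligned reads to mm10 (GRCm38) with Cell Ranger ATAC 1.1.0, filtered nuclei on fragments, mitochondrial share and promoter ratio, clustered them with SnapATAC and Harmony, called peaks per cell type with MACS2 and merged them into 300755 peaks. The deposited matrix holds binarized counts, 1 where a peak was open in a nucleus (166031996 open calls, beside 89197 stored zeros), in 28316 nuclei. Metadata rows were read in matrix order, and UMAP coordinates were not used. No doublet caller was run on the binarized calls, and removal of doublets is not given in the sources used here. The nuclei named NP_LOH and PT_out fall outside the 13 clusters.

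Open calls were summed per sample and cluster, over peaks and over 21911 protein-coding genes of GENCODE M21 (gene body plus 2 kb upstream). Genes that overlap share peaks, and unstranded calls cannot tell them apart. P0 and adult sums were tested with edgeR 4.0.16 (R 4.3.3; quasi-likelihood, TMM, filterByExpr with a minimum count of 10 and total of 15, Benjamini-Hochberg, threshold 0.05), and with DESeq2 1.42.0 as an alternative. Standard errors are the log2 difference over the square root of F. The interaction was fitted on the sums of all 13 clusters with the sample as a block, and genes with no call in 1 of the other clusters at 1 age, whose mean stage effect has no estimate, were left out after the first results were seen. Such sums carry 1 call per nucleus at most, so they saturate in open peaks. On simulated sums with only 200 features changed 4-fold, the stage tests recovered 99.5% of changed genes and 81.8% of changed peaks that passed the filter. The interaction recovered 99.0% of 200 genes, and there were 8, 4 and 14 false calls. These sums had 1 spread for all features, and in the interaction run 1 profile for all clusters and only genes with many calls. Far more features were called in the data, so these rates are not those of the real tests. Cluster against cluster was described and not tested. An element is exon (including UTR), intron, promoter (5 kb) or distal.

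Named were list members, the 10 genes and 10 peaks with the largest ratio, the 10 genes and 5 peaks with the widest stage difference each way among those without overlap, the 5 widest interactions each way, and peaks within 50 kb of Slc12a1 and Umod open in at least 2% of nuclei. The members and lists were chosen with earlier results of these data known. Sequences come from the RefSeq copy of GRCm38.p6. Values of some list members are not reported here, though they are in the counts of their lists.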

Additional observations from a re-analysis of the deposited data

Results flagged for a closer look

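The age difference in loop of Henle nuclei differed from the mean of the other 12 clusters for 5176 of 15464 genes by the interaction test, which is why they are listed here. Among the listed genes the extra log2 difference toward adult was 1.23 for Slc12a1, 1.21 for Fxyd2, 2.00 for Egf, 1.60 for Ptger3, 1.203 for Esrrb, 1.17 for Irx2 and 1.32 for Ckb. Toward P0 it was -2.07 for Cldn4, -1.14 for Nos1, -0.77 for Sgk1, -1.89 for Lhx1, -1.46 for Emx1, -2.04 for Wt1 and -1.26 for Lgr5. Against distal convoluted tubule alone Slc12a1, Fxyd2, Lhx1 and Emx1 were called, and the other 10 of these 14 genes were not, Cldn4, Nos1 and Sgk1 (-0.42, adjusted p = 0.422) among them. Sgk1, a kinase induced by aldosterone, had 76.2 ± 3.36 and 60.02 ± 14.6 CPM in P0 and adult loop of Henle nuclei, which did not pass within the cluster (adjusted p = 0.11).

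The widest interactions by the fixed rule were mostly in genes with few open calls. Toward adult they were Ly86 (2.52), Kcnt1 (2.34), Lcn2 (2.22), Nccrp1 (2.10) and Egf, given above. Ly86 had 40 and 47 open calls at P0 and 62, 175 and 189 in adult loop of Henle nuclei, and Kcnt1, a sodium-activated potassium channel gene, had 80 and 99 against 67, 154 and 243. Lcn2, which encodes lipocalin 2, had 5 and 8 against 6, 28 and 52. Toward P0 they were Gm15737 (-3.64), Fga (-3.35), Gm21973 (-3.29), Crispld1 (-2.94) and Fmo4 (-2.86). Gm15737 had 177 and 200 calls at P0 and 7, 5 and 14 in adult, and Crispld1 69 and 79 against 0, 3 and 0. Against distal convoluted tubule alone Ly86, Nccrp1, Gm15737 and Fmo4 were called and the other 6 were not. With thinned nuclei Egf and Ly86 were called, and the other 8 had a cluster with no open call at 1 age and were not tested.

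Outside the 13 clusters, the 218 nuclei that the annotation names NP_LOH came from the adult samples but for 1, and held 51 open calls over the Umod window in adult (72.7 CPM, against 164 in loop of Henle and 56.02 in nephron progenitors). Over Slc12a1 they held 5 (7.12 CPM, against 332 in loop of Henle and 39.9 in nephron progenitors). These levels pool the adult samples, and no test was made. The adult nuclei named nephron progenitors had 1.08 CPM over their marker Six2, against 56.7 in those of P0.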

How the results depend on the processing

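The counts of calls moved with depth and with the number of P0 samples more than with the tool. With nuclei thinned to 1000 open peaks 2618 peaks were higher in adult and 2092 at P0, 1498 and 2294 genes, and 359 and 556 interactions toward adult and toward P0. With 394 nuclei in each sample there were 11051 and 12793 peaks, and DESeq2 called 13663 and 15462 peaks and 3389 and 3693 genes. Leaving out 1 sample at a time gave 10823 to 22842 peaks higher in adult and 13374 to 26941 at P0, 1436 to 5203 and 2739 to 5543 genes, and 743 to 2685 and 1147 to 2794 interactions, lowest without P0 sample 1, where the lone P0 sample is assumed to vary like the adult ones. Against distal convoluted tubule alone the interactions were 266 and 305. Testing also the genes with an empty cluster, added after seeing the data, gave 2322 and 2958, and 373 and 716 when thinned, where genes such as Slc12a1 have no estimate.

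The share of nuclei reversed over nephron and duct clusters (P0 minus adult 2.89, against -2.46 percentage points), with -3.37 to -1.75 over the samples left out. The leading peaks numbered 22 when thinned, 15 of them among the 152. They numbered 95 at a ratio of 3, and 151 to 336 over the samples left out. The leading genes numbered 2, 1 at a ratio of 3, 8 with no ratio, and 3 to 11. In whole peaks the ESRR letters were in 2.26% of all peaks, 4.19% of those higher in adult and 1.25% of those higher at P0.

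Of 1217 alternative values for the 89 named genes 1156 kept direction and side of the threshold, 44 fell short of it, 11 passed it newly and 6 reversed, as did 518, 10, 2 and 2 of 532 for the 44 named peaks and 179, 31, 0 and 0 of 210 for 24 interactions. The reversals were, over gene starts alone, Slc4a4 (-0.56), Slc41a3 (0.042), Esrrb (-0.085) and Tenm2 (-2.65), and Esrrg without TMM (-0.022) and when thinned (-0.089). The Myef2 peak reversed when thinned (-0.23) and the Ctxn2 peak without P0 sample 1 (-0.069, against up to 0.53 without P0 sample 2). The causes were not tested. A replicate block, added after seeing the data, gave 21193 and 25212 peaks and 3994 and 4825 genes. The first samples of P0, P21 and P56 share a number, as do the second of P0 and P56, and nothing in the labels ties them to 1 animal or day, so the numbers do not pair the samples.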
